A study of Mus musculus with 4 samples.

Results

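The 28 genes described here are those of cholesterol synthesis and of its control by the SREBP transcription factors. They were chosen by name as 9 enzymes that lead to squalene (pre-squalene), 11 enzymes that act from squalene to cholesterol (post-squalene), and 8 genes for regulators and a sterol carrier. The 28 stand against 22843 genes that were well above background on at least 1 array, and all 28 were well above background on all 4 arrays. The retinas were 3D-retinas, optic cups grown in floating culture from mouse induced pluripotent stem cells that carry an Nrl-GFP reporter, picked for bright fluorescence. Treatment began on day 23 of differentiation and RNA was collected on day 25. The control group received ethanol as vehicle. The second group received 4-hydroxytamoxifen (4-OHT) at 5 µM, a metabolite through which tamoxifen acts on estrogen receptors. The third received that dose of 4-OHT together with vitamin E, a lipid-soluble antioxidant, at 400 µM, and the fourth that dose together with lutein, a carotenoid of the macula, at 200 nM. No group received a supplement without 4-OHT. Each group was 1 array of RNA from 24 pooled 3D-retinas, so no difference has a replicate check or a p-value, and the variation between cultures is unknown.

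Cells build cholesterol from acetyl-CoA through mevalonate, isoprenoid diphosphates, squalene and lanosterol. The SREBP proteins are made as membrane-bound precursors held in the endoplasmic reticulum by SCAP and the INSIG proteins while sterols are plentiful. When sterols fall, SCAP carries the precursor to the Golgi, where the site-1 and site-2 proteases release the active factor, which binds promoters of the enzyme genes together with NF-Y, the factor that recognises CCAAT. Tamoxifen and related drugs are known to bind a membrane site formed by the sterol enzymes EBP and DHCR7, and photoreceptor outer segments are rich in membrane.

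5 promoters are shown, since the genes they belong to span the patterns described further on. The 250 bases before the RefSeq start (table of build GRCm38.p6) are printed 5′ to 3′ on the gene's strand. Capitals mark the SREBP element TCACNCCAC and the NF-Y box CCAAT, which reads ATTGG where it lies on the opposite strand. The marked stretches do not overlap. The windows are chr13:119690101-119690350, plus strand, for Hmgcs1; chr10:76531355-76531604, plus strand, for Lss; chr5:28071162-28071411, plus strand, for Insig1; chr5:114444019-114444268, plus strand, for Mvk; and chrX:8193513-8193762, minus strand, for Ebp. On the 4-OHT array Hmgcs1, Lss and Insig1 exceeded vehicle by 1.5-fold or more, and Mvk and Ebp did not.
Hmgcs1: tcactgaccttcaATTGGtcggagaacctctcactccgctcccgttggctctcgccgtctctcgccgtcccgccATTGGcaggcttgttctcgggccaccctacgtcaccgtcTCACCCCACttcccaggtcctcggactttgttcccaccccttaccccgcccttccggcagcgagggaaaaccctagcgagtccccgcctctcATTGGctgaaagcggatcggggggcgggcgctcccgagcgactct
Lss: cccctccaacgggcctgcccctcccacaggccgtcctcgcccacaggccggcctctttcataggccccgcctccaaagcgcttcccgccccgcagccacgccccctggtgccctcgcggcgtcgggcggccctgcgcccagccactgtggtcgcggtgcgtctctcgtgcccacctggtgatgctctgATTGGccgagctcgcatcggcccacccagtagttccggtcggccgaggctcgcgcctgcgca
Insig1: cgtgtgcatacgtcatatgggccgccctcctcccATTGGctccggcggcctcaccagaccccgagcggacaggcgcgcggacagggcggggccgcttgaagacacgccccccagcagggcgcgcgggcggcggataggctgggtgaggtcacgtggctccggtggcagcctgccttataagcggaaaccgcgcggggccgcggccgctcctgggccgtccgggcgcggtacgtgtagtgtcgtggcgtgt
Mvk: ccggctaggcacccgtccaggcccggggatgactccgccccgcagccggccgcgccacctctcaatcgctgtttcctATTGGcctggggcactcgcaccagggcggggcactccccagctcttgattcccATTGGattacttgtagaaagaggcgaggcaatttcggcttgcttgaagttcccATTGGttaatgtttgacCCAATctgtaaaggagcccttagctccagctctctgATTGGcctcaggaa
Ebp: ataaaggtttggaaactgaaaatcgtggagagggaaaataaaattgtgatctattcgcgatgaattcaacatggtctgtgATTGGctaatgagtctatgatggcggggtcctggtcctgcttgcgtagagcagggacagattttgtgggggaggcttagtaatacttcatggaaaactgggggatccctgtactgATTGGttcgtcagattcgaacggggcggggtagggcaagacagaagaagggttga
The Hmgcs1 window held 1 SREBP element and 3 CCAAT boxes. Mvk had 5 CCAAT boxes and Ebp 2, against 1 each in Lss and Insig1. These 5 genes were picked for their patterns, so a link between the number of boxes and expression was not tested. Both strands of windows from 250 bases before to 50 after the start were searched for 24 of the 28 members. Fdps, Fdft1, Sqle and Stard4 were not matched. CCAAT occurred in 16 of 17 enzymes, the exception being Acat2, and in 4 of 7 regulators, those without it being Scap, Mbtps1 and Mbtps2, against 41.1% of all 27025 genes in the table. The Sp1 box GGGCGG occurred in 21 of 24 members and in 38.2% of all genes. The SREBP element occurred in Hmgcs1 alone of the 24 (1.44% of all genes), and the E-box TCACGTGA in 0 of 24 (1.12%). A match is a string of letters and not a measured binding site, and shorter or variant SREBP elements were not searched.

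Levels below are log2 signal relative to the 75th percentile of the array's gene spots, and differences are log2 differences of that level between 2 arrays. A gene was counted as higher or lower from 1.5-fold, a log2 difference of 0.58, which is a fixed size and not a test. The share of gene spots well above background was 51.3% to 54.5%, and the spot-to-spot SD of a difference was 0.16 to 0.20, which leaves out any variation between cultures. The labelled tissue had retinal markers: all 6 rod markers and both photoreceptor markers were well above background on all 4 arrays. Of the microglia and macrophage markers only Csf1r of 4 was, with Aif1, Cx3cr1 and Ptprc not well above background on any array, and of 3 endothelial markers Cdh5 was not.

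Rod markers were lower on the 4-OHT array. All 6 rod markers were at least 1.5-fold lower on the 4-OHT array than in vehicle, Gnat1 by a log2 difference of -5.35 and Nrl by -0.75. The log2 of the summed rod level was 9.73 in vehicle, 8.73 with 4-OHT, 9.45 with vitamin E added and 9.08 with lutein added. For Muller glia (6 of 6 markers well above background) it was 5.50, 7.15, 5.74 and 6.66, a sum carried by Clu (4.71 in vehicle and 6.95 with 4-OHT). Of those 6 markers 3 lay above vehicle with 4-OHT and 3 below, with a median difference of -0.01. For pigment epithelium (3 of 5) the sum was 1.49, 3.52, 3.08 and 3.37, carried by Dct alone (0.99 and 3.41), while Mitf differed by -0.12 and Tyr by 0.36. In RNA of whole 3D-retinas, fewer cells of a type and less RNA per cell cannot be told apart, and the part of these differences in the results for the sterol genes was not tested.

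Comparing 4-OHT with vehicle asks which genes differed after the drug. Most sterol enzymes lay somewhat higher on the 4-OHT array, while 5 of the 8 regulators and carrier genes lay lower, as most protein-coding genes did. The median log2 difference was 0.25 for the pre-squalene enzymes and 0.34 for the post-squalene enzymes, and -0.28 for the regulators and carrier. It was -0.06 over all genes measured and -0.13 over protein-coding genes. Of the 20 enzymes 15 lay above 0, against 39.5% of protein-coding genes, but only Hmgcs1 and Lss were at least 1.5-fold higher. The regulators and carrier, with 3 of 8 above 0 (37.5%), were near the share of protein-coding genes. With Insig1, 3 of 28 members were at least 1.5-fold higher, where 15.1% of all genes measured were. Insig2 and Srebf1 were at least 1.5-fold lower, 2 of 28 where 13.5% of all genes were. By the scaling used here neither count is above the share of all genes, and most enzyme differences were smaller than the limit. With quantile normalization 7 members were higher, which is above the 13.3% of all genes that were higher there. In this comparison the class medians kept their signs under every alternative run.

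**Figure D1:**
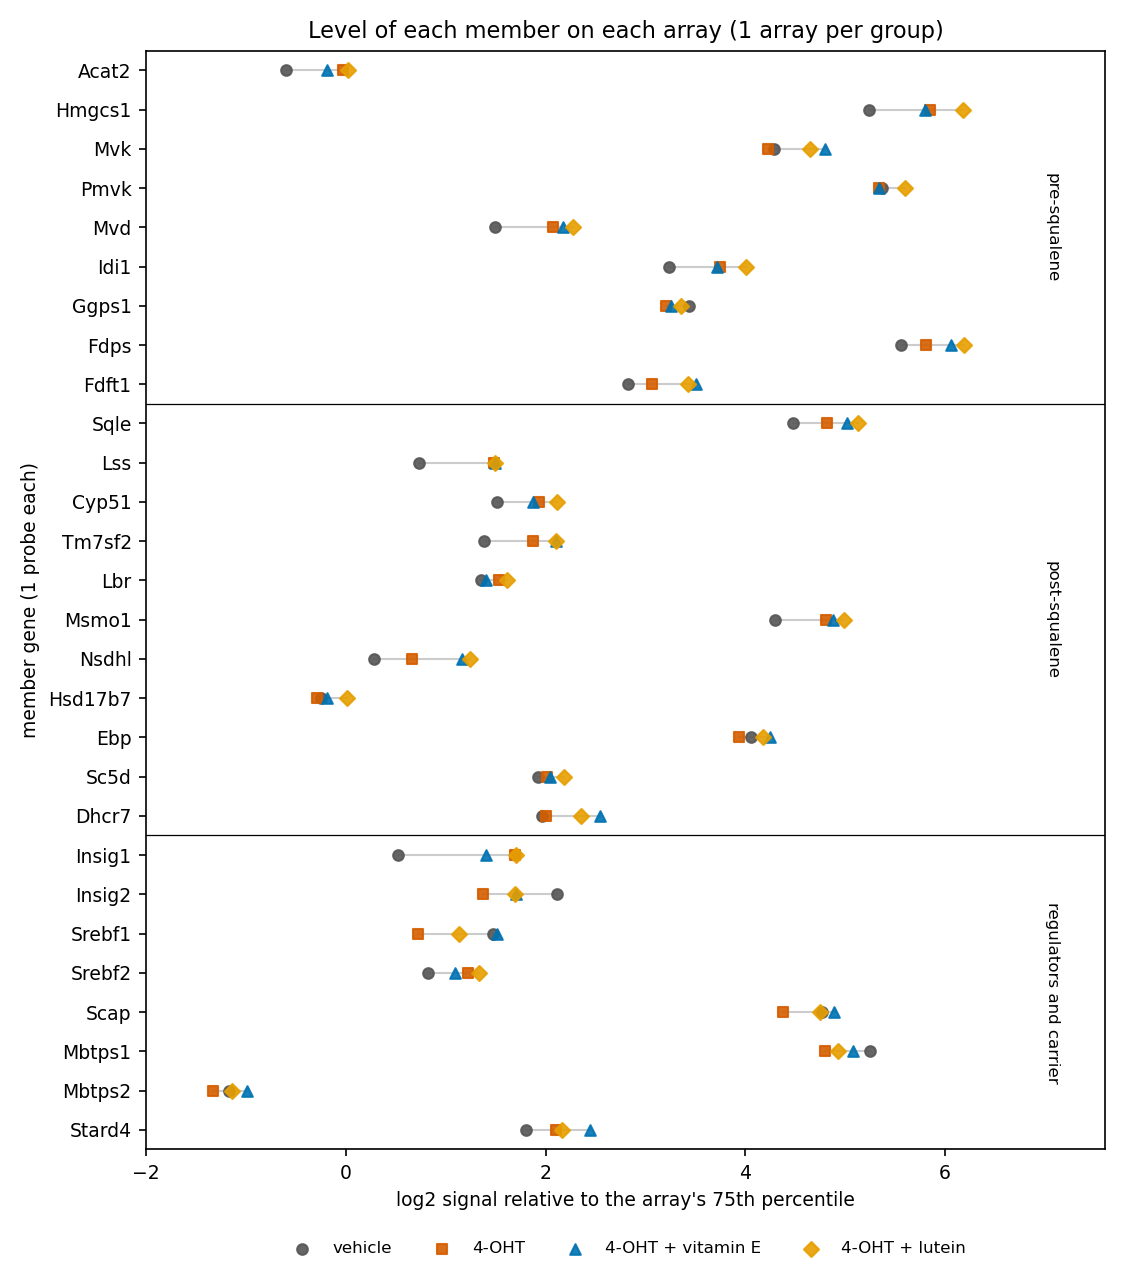
Level of each of the 28 genes on each of the 4 arrays, as log2 signal relative to the array's 75th percentile (horizontal axis), in pathway order within the 3 classes; each symbol is 1 array and the grey line spans the 4. By the scaling used here the vehicle array gives the lowest value for 18 of the 28 genes and the lutein array the highest for 16.

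The pre-squalene enzymes make the building blocks. Acat2, the cytosolic thiolase that joins acetyl units, stood at -0.60 in vehicle, -0.03 with 4-OHT, -0.19 with vitamin E and 0.02 with lutein. Hmgcs1, the HMG-CoA synthase of the cytosol, stood at 5.24, 5.85, 5.80 and 6.18 in the same order. For both genes the vehicle array was the lowest and the lutein array the highest. With 4-OHT, Hmgcs1 exceeded vehicle 1.53-fold and Acat2 1.48-fold. Hmgcs1 fell short of 1.5-fold on spike-in scaling (0.47) and as the mean of its probes (0.50), and with lutein against vehicle that mean was 0.57 in place of 0.94. Its second probe was well above background on 1 array only. The Hmgcs1 probe is placed on an unlocalised contig of chromosome 13 of the mm9 build.

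Mvd, the decarboxylase that makes isopentenyl diphosphate, stood at 1.497 in vehicle, 2.07 with 4-OHT, 2.17 with vitamin E and 2.27 with lutein. Idi1, the isomerase of the next step, stood at 3.24, 3.75, 3.72 and 4.00. Both had all 3 treated arrays above vehicle. With 4-OHT, Mvd exceeded vehicle 1.49-fold and Idi1 1.42-fold, just short of the limit. Mvk and Pmvk, the kinases between mevalonate and Mvd, differed from vehicle by -0.06 and -0.02 with 4-OHT. Mvk stood higher with vitamin E (log2 difference from 4-OHT 0.57) and lutein (0.42), and its other probe gave 0.61 and 0.41. Pmvk spanned 0.27 over the 4 arrays.

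Fdps, the farnesyl diphosphate synthase, stood at 5.56 in vehicle, 5.81 with 4-OHT, 6.06 with vitamin E and 6.19 with lutein. Fdft1, the squalene synthase that commits farnesyl units to sterols, stood at 2.82, 3.06, 3.51 and 3.43. In both, the 2 arrays with a supplement lay above 4-OHT alone, and 4-OHT above vehicle. The probes that stand for these genes are placed by the array's annotation away from them on mm9, at chr10:93242421-93242480 for Fdps and chr14:19364899-19364958 for Fdft1, so the RNA they measure is less certain. The probe placed at Fdft1 itself was well above background on 1 array only. As the mean of both probes Fdft1 differed from vehicle by -0.15 with 4-OHT, where the brighter probe gave 0.24. Ggps1, which makes the geranylgeranyl chain of prenylated proteins instead of sterol, was the only enzyme below vehicle on all 3 treated arrays, at -0.23, -0.18 and -0.07 for 4-OHT, vitamin E and lutein.

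The post-squalene enzymes form and trim the ring system. Sqle, the squalene epoxidase, stood at 4.48 in vehicle, 4.82 with 4-OHT, 5.02 with vitamin E and 5.13 with lutein. Lss, the lanosterol synthase that closes the rings, stood at 0.74, 1.49, 1.49 and 1.49. With 4-OHT, Lss thus exceeded vehicle 1.68-fold, and the 3 treated arrays were alike to within 0.01. Cyp51, the lanosterol 14-demethylase, stood at 1.52, 1.93, 1.88 and 2.11. Tm7sf2, a C14 sterol reductase, stood at 1.38, 1.87, 2.11 and 2.10, and its other probe differed from vehicle by 0.57 with 4-OHT where the first differed by 0.50. Lbr, a nuclear membrane protein with the same reductase activity, differed by 0.18.

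Msmo1, the C4-methyl oxidase, stood at 4.30 in vehicle, 4.81 with 4-OHT, 4.87 with vitamin E and 4.99 with lutein. Nsdhl, the dehydrogenase that acts with it, stood at 0.28, 0.66, 1.16 and 1.24. Nsdhl had the widest range of the enzymes, 0.95, with most of it between 4-OHT alone and the supplement arrays. Its second probe gave 0.50 for 4-OHT against vehicle, 1.09 for vitamin E against vehicle and 0.87 for lutein against vehicle, where the first gave 0.38, 0.88 and 0.95. Hsd17b7, the 3-ketosteroid reductase of the same complex, differed by -0.04 with 4-OHT.

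The last 3 enzymes in the order of the list were close to vehicle with 4-OHT. Ebp, the sterol isomerase, differed by -0.13, Sc5d, the C5 desaturase, by 0.09, and Dhcr7, the last reductase of the chain to cholesterol, by 0.04. All 3 lie within the spot-to-spot SD of 0.20. On the vitamin E array Dhcr7 was 0.53 and Ebp 0.31 above 4-OHT alone. Sc5d differed there by 0.03.

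**Figure D2:**
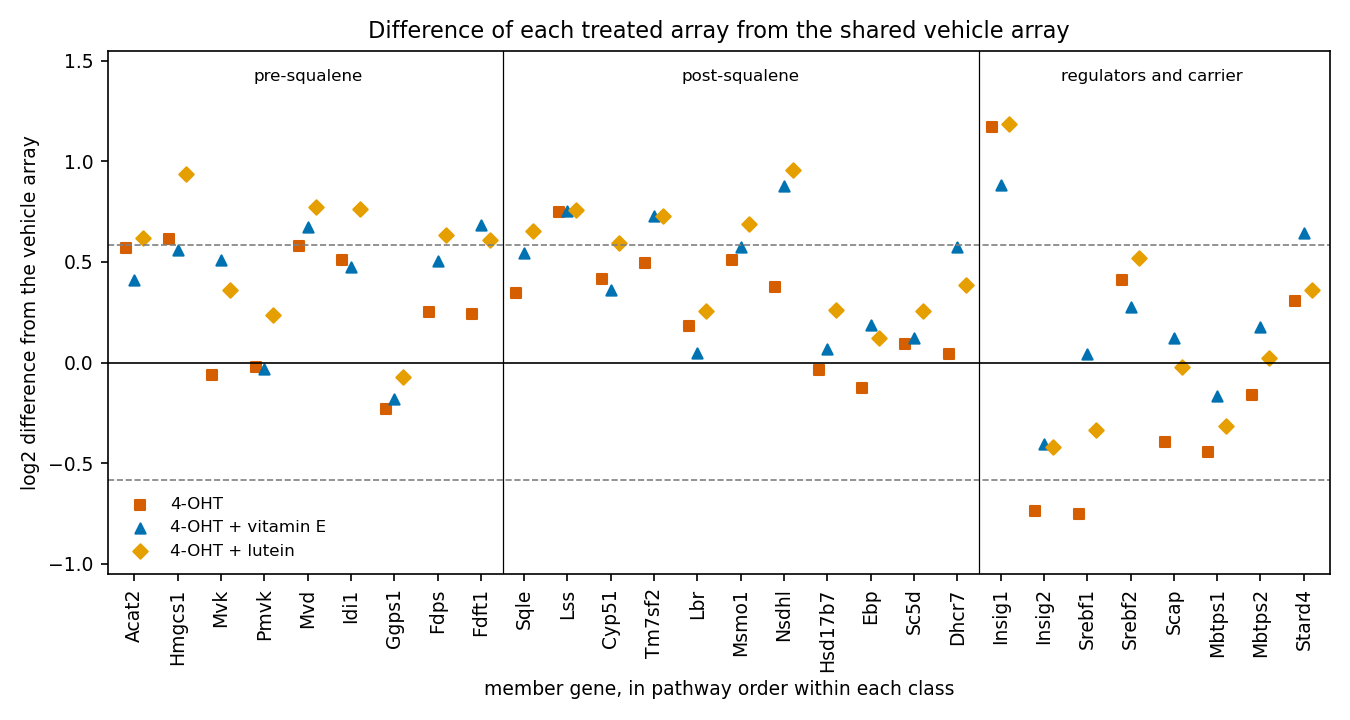
Log2 difference of each treated array from the vehicle array (vertical axis) for the 28 genes in pathway order, 1 symbol per array; dashed lines mark 1.5-fold in each direction. All 3 comparisons share the vehicle array, and the 11 post-squalene enzymes lie above 0 on both supplement arrays.

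The regulators differed in both directions. Insig1, the INSIG protein whose gene is itself an SREBP target, stood at 0.52 in vehicle, 1.69 with 4-OHT, 1.41 with vitamin E and 1.71 with lutein. It had the widest range of the 28 genes, 1.19, with vehicle apart from the 3 treated arrays, and with 4-OHT it exceeded vehicle 2.25-fold. It was measured by 1 probe, at chr5:28404246-28404305 of mm9. Insig2, its paralog, whose transcription does not depend on SREBP in the same way, stood at 2.11, 1.37, 1.71 and 1.69. Insig2 was thus highest in vehicle, 1.67-fold lower with 4-OHT, and between the extremes with either supplement. Its second probe gave -0.56 for 4-OHT against vehicle where the first gave -0.74.

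Srebf1, which encodes the SREBP of fatty acid synthesis, stood at 1.47 in vehicle, 0.72 with 4-OHT, 1.52 with vitamin E and 1.13 with lutein. It was 1.69-fold lower with 4-OHT than in vehicle, 0.04 above vehicle with vitamin E, and in between with lutein. It was measured by 1 probe, and its isoforms were not told apart. Srebf2, the SREBP of cholesterol synthesis, lay above vehicle on all 3 treated arrays, with log2 differences of 0.41 with 4-OHT, 0.28 with vitamin E and 0.52 with lutein. Its second probe gave 0.34 with 4-OHT.

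The other regulators act in SREBP activation. With 4-OHT, Scap, the escort protein, differed from vehicle by -0.39, Mbtps1, the site-1 protease, by -0.44, and Mbtps2, the site-2 protease, by -0.16. None reached 1.5-fold, and the value of Mbtps2 is close to the protein-coding median of -0.13. With vitamin E they lay 0.51, 0.28 and 0.34 above 4-OHT alone. For Mbtps2 the second probe had the opposite sign there, and its difference of vitamin E from vehicle was -0.68 where the first probe gave 0.17. Stard4, a cytosolic sterol carrier and SREBP target, stood at 1.80 in vehicle, 2.11 with 4-OHT, 2.44 with vitamin E and 2.16 with lutein. Stard4 was lowest in vehicle and 1.56-fold higher with vitamin E, or 0.53 on the log2 scale, short of the limit, as the mean of its probes.

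**Figure D3:**
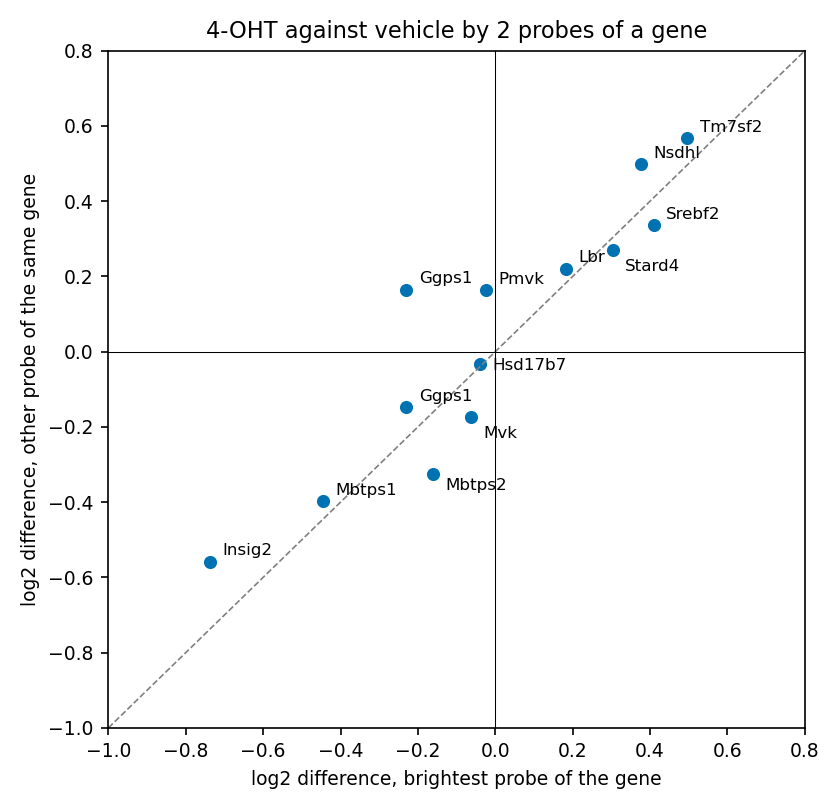
Log2 difference of 4-OHT from vehicle by the brightest probe of a gene (horizontal axis) and by another probe of it that was well above background on all 4 arrays (vertical axis), for 13 other probes of 12 genes; the dashed line marks equal values. The sign was the same for 11 of 13, the exceptions being 1 Ggps1 probe and Pmvk.

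Adding vitamin E to 4-OHT asks what the antioxidant altered in the presence of the drug. The pre-squalene median against 4-OHT alone was 0.05 (-0.11 with quantile normalization), the post-squalene median 0.11 and that of the regulators and carrier 0.33. The median of all 28 was 0.15, against 0.17 over protein-coding genes, and 14 of the 28 lay above that gene-wide value. Srebf1, 1.74-fold higher, was the 1 member at least 1.5-fold higher, where 8.55% of all genes measured were, and 0 were lower, where 15.6% of all genes were. The largest differences after Srebf1 were those of Mvk (0.57), Dhcr7 (0.53), Scap (0.51) and Nsdhl (0.50), none of them among the 3 higher with 4-OHT. Hmgcs1 (-0.06), Lss (0.00), Idi1 (-0.03) and Insig1 (-0.29) did not lie higher with vitamin E. On spike-in scaling the all-gene median against 4-OHT alone lay 0.22 higher and the member median was 0.37.

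Adding lutein to 4-OHT asks the same of the carotenoid, at a lower dose. All 28 members lay above 4-OHT alone, where 69.4% of protein-coding genes did, and the median was 0.24 against 0.13. The differences were small: 0 of 28 reached 1.5-fold in either direction, where 3.9% of all genes measured were higher and 9.13% lower. Nsdhl came closest at 0.58, followed by Mvk and Srebf1 at 0.42. Lss (0.01) and Insig1 (0.02) had almost the same level on both arrays. With quantile normalization 24 of 28 lay above 0, with normexp background correction 26, and scaled on the median of commonly detected probes 27. The medians over all genes there were 0.05, 0.06 and 0.07, against 0.08 by the scaling used here. The share of genes above 0 was not counted under those settings. The comparisons of a supplement with 4-OHT share the 4-OHT array with the comparison of 4-OHT with vehicle, and the signs in them are therefore not independent.

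Set against vehicle, both supplement arrays carried more of the enzyme RNAs. With vitamin E 7 of 28 members were at least 1.5-fold higher, 25.0% where 4.4% of all genes measured were, and 0 were lower, where 6.65% were. The 7 were Mvd, Fdft1, Lss, Tm7sf2, Nsdhl, Insig1 and Stard4. The class medians were 0.51, 0.55 and 0.15 for pre-squalene enzymes, post-squalene enzymes and the regulators with the carrier, beside -0.02 over all genes. Nsdhl was 1.84-fold and Insig1 1.85-fold higher. On spike-in scaling 11 members passed the limit, where 5.69% of all genes did. By the scaling used here 0 members passed a limit of 2-fold, a count with no share of all genes beside it.

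With lutein 13 of 28 were at least 1.5-fold higher than in vehicle, 46.4% where 9.23% of all genes measured were, and 0 were lower, where 5.82% were. They were 6 of 9 pre-squalene enzymes (Acat2, Hmgcs1, Mvd, Idi1, Fdps and Fdft1), 6 of 11 post-squalene enzymes (Sqle, Lss, Cyp51, Tm7sf2, Msmo1 and Nsdhl) and Insig1 of the 8 regulators and carrier. The class medians were 0.62, 0.59 and 0.00. Insig1 was 2.28-fold, Nsdhl 1.94-fold and Hmgcs1 1.92-fold higher. Without Fdps and Fdft1, whose probes are placed elsewhere, the member median was 0.37 in place of 0.45. Of the 13, 9 passed the limit under every scaling, probe and filter setting tried, and Acat2, Hmgcs1, Fdft1 and Cyp51 fell short under at least 1. At a limit of 2-fold the 13 became 1, Insig1, a count with no share of all genes beside it.

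**Figure D4:**
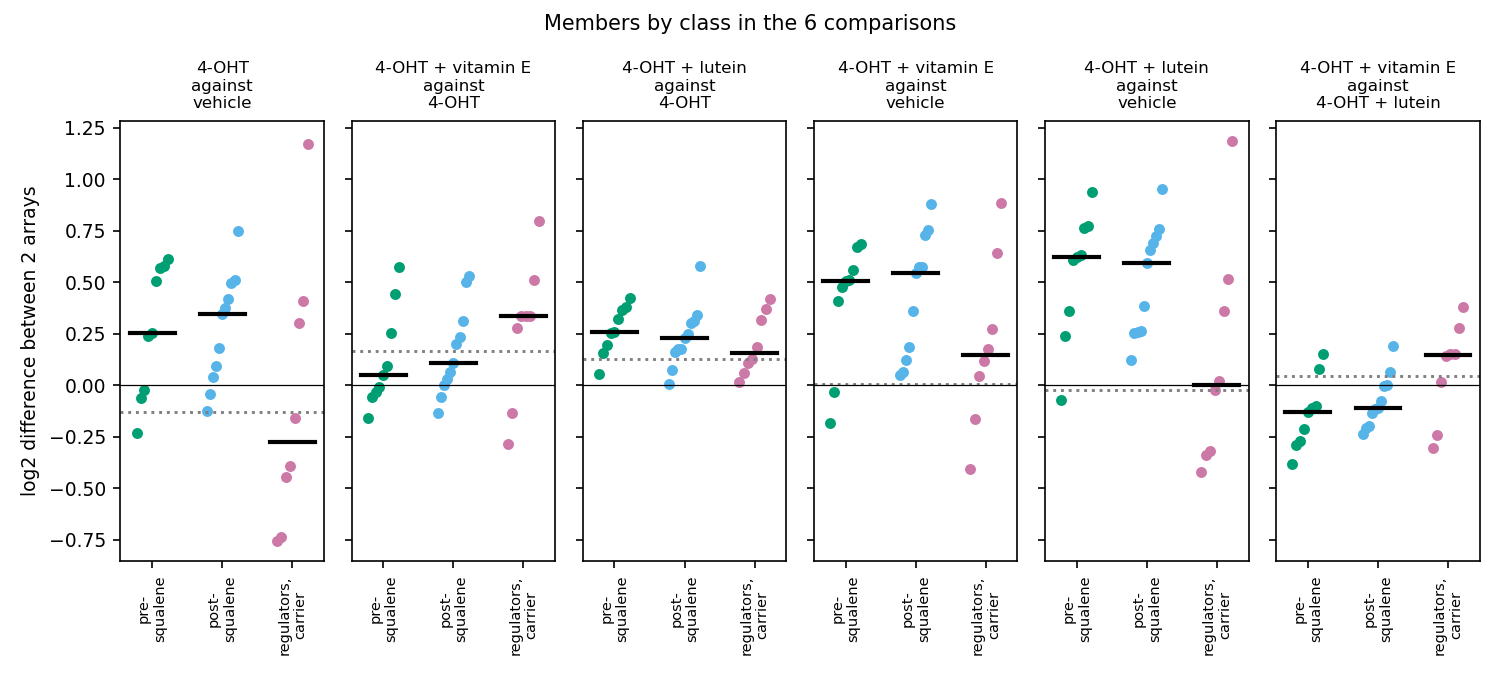
Log2 difference of each of the 28 genes (points) in the 6 comparisons, by class; bars are class medians and dotted lines the median over protein-coding genes. In 4-OHT against vehicle the enzyme medians (0.25 and 0.34) lie above the dotted line and that of the regulators and carrier (-0.28) below it.

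Between the supplements themselves the members differed little. Vitamin E and lutein were given at different doses, so their arrays are set side by side only. Of the 28 genes 0 differed by 1.5-fold in either direction, where 2.21% of all genes measured were higher and 8.94% lower with vitamin E than with lutein. The median was -0.11 (0.01 on spike-in scaling), with -0.13 and -0.11 for the enzyme classes and 0.15 for the regulators and carrier. Hmgcs1 had the largest negative difference (-0.38) and Srebf1 the largest positive one (0.38).

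Over all 4 arrays most enzymes were lowest in vehicle and, by the scaling used here, highest with lutein. The vehicle array was the lowest for 6 of 9 pre-squalene and 9 of 11 post-squalene enzymes but for 3 of 8 regulators and carrier genes, against 24.6% of 19382 genes well above background on all arrays. The 4-OHT array was the highest for 0 of 28, against 25.1% of all genes, and the lutein array for 16 of 28, or 57.1% against 16.6%. Among the 16 were 6 of 9 pre-squalene and 8 of 11 post-squalene enzymes. The place of the lutein array depends on the scaling. On spike-in scaling 16 of 28 members lay higher with vitamin E than with lutein, where 11 did by the scaling used here. The median of that difference over all genes was 0.13 on spike-ins and 0.01 by the scaling used here. The order of the arrays was not counted on spike-in scaling. The 18 members lowest in vehicle were those above it on all 3 treated arrays, and Ggps1, Insig2 and Mbtps1 lay below it on all 3. The range over the arrays had a median of 0.63 for the members and 0.45 for all these genes.

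Genes of neighbouring pathways were read from the same arrays. Of 14 SREBP-1 targets of fatty acid synthesis the median difference of 4-OHT from vehicle was 0.21. Elovl6, a fatty acid elongase, was 1.72-fold higher, 1 of 14 where 15.1% of all genes were higher. Me1, the malic enzyme, and Lpin1, a phosphatidate phosphatase, were 1.56-fold and 1.53-fold lower. They were 2 of 14 where 13.5% of all genes were lower, so these counts are not clearly above the background. Against vehicle 4 of the 14 passed the limit upward with vitamin E, where 4.4% of all genes did, and 5 with lutein, where 9.23% did. None passed it downward, where 6.65% of all genes did with vitamin E and 5.82% with lutein. Gpam and Lpin1 still lay below vehicle on both supplement arrays. Me1 differed from vehicle by -0.02 with vitamin E, within the spot-to-spot SD, and by -0.30 with lutein. Srebf1 itself differed from vehicle by 0.04 and -0.34. Scd1, the stearoyl-CoA desaturase, was 2.24-fold higher with vitamin E and 1.94-fold with lutein; it was picked out after its values were seen.

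Enzymes of the isoprenoid branch, which use the same precursors for protein prenylation, dolichol and ubiquinone, had a median of -0.18 with 4-OHT. Of 10, 0 passed the limit upward and 1, the farnesyltransferase subunit Fntb, was 1.62-fold lower, where 15.1% and 13.5% of all genes passed it. Against vehicle 0 of the 10 passed 1.5-fold with either supplement. Of all genes 4.4% were higher and 6.65% lower with vitamin E, and 9.23% and 5.82% with lutein. Of 8 genes for sterol-regulated degradation and the anchoring of SCAP, only Ubxn8 passed the limit with 4-OHT, 1.80-fold lower, where 13.5% of all genes were lower, and the median was -0.11.

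With 4-OHT, 2 of 10 sterol trafficking genes passed the limit upward and 2 downward, with a median of 0.10. With 15.1% and 13.5% of all genes past it, these counts are near the background. Soat1, which esterifies cholesterol for storage, was 2.06-fold higher, and its level in vehicle was -3.77, low on the scale. The 3 GRAMD1 proteins, which carry cholesterol from the plasma membrane to the endoplasmic reticulum, differed among themselves. Gramd1a was 1.99-fold higher, Gramd1b 1.98-fold lower and Gramd1c 2.86-fold lower. For Gramd1c the levels were 2.74 in vehicle, 1.22 with 4-OHT, 1.83 with vitamin E and 1.61 with lutein, lowest on the 4-OHT array.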

How the data were processed

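Total RNA of 4 pools of 3D-retinas, 50 ng each per the labels, was labelled with Cy3 and hybridised to a 1-colour mouse array. The submitters' processing notes name Agilent Feature Extraction 10.7.3.1 for the scanner output. The intensity the authors deposited for a spot is background-subtracted and detrended, with no normalization between arrays, and the design is annotated on mm9, per the file headers. All 4 arrays shared a slide and a scan, and each group has a slide position of its own, so these cannot be told apart. The lutein file had been saved at 3 significant digits with 57 gene names altered, so names came from the vehicle array.

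Control spots and outlier spots (137 to 164 per array) were left out and none was saturated. The log2 of each intensity was taken, less the 75th percentile over the array's gene spots, and averaged over a probe's spots. The probe with the highest mean stood for a gene, also where probes disagreed. A gene entered a comparison if well above background on at least 1 of its arrays. A dim value below the array's floor was raised to that floor, and a dim value above it was kept. The number of arrays, 1 per group, limits the precision, and no test was run.

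The authors' deposited value table served as an alternative. Set against the scanner values it proved to be the linear intensity divided by 1 number per array, 494.2 (vehicle), 434.1 (4-OHT), 468.9 (with vitamin E) and 479.2 (with lutein), with column medians of 0.0794, 0.0949, 0.0736 and 0.0847. It is neither logged nor centred, and its direction is that of the signal.

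The members, classes, gene lists, motifs and limits were chosen with earlier results of these data known. All members are named. Values on every array are given for those at least 1.5-fold different in any comparison, and of other lists up to 4 genes past 1.5-fold with 4-OHT. Some pathway genes are not reported here. Gene structures of mm9 were not used here. Alternatives were other scalings (7 spike-in probes, the median of commonly detected probes, quantile), normexp background correction with offset 50 (limma 3.58.1, R 4.3.3), other fold limits, other detection filters, the mean of a gene's probes and the value table. Other steps used Python 3.11.15, NumPy 2.4.6, pandas 2.3.3 and matplotlib 3.10.9, and the counting steps were tested on simulated data.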

Additional observations from a re-analysis of the deposited data

How the results depend on the processing

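No paired analysis was possible because there was only 1 array to a group, and for the same reason no array could be left out of a comparison. Under the alternatives run, 157 of 180 medians and counts over the members were within their limits. None of the member differences counted past 1.5-fold reversed. The median over members did change sign for vitamin E against lutein on spike-in scaling (from -0.11 to 0.01). For vitamin E against 4-OHT it went from 0.15 to -0.01 relative to protein-coding genes. The fold limit moved the counts most. The looser limit tried was a log2 difference of 0.32. Shares of all genes at the looser limit and at 2-fold are not given here. The counts of members at those limits therefore have no background beside them and are not read as a result about the members. For genes higher with 4-OHT than in vehicle (3) it gave 12 at the looser limit and 1 at 2-fold, and for genes lower (2) 4 and 0. For vitamin E against vehicle the 7 higher became 16 at the looser limit and 0 at 2-fold, with 1 lower at the looser limit. For lutein against vehicle the 13 became 1 at 2-fold, with 2 lower at the looser limit. For vitamin E against 4-OHT the 1 became 9 and 0, for lutein against 4-OHT the 0 became 8 at the looser limit, and for vitamin E against lutein 1 was higher and 1 lower at the looser limit. Quantile normalization gave 7 higher with 4-OHT than in vehicle, where 13.3% of all genes were. Spike-in scaling gave 6 higher for vitamin E against 4-OHT, where 23.1% of all genes were. The member median there was 0.37, against 0.30 over all genes. It gave 11 for vitamin E against vehicle (5.69% of all genes) and 1 for lutein against 4-OHT (6.22%). The mean of a gene's probes gave 3 for vitamin E (8.27%) and 1 for lutein (4.15%) against 4-OHT. For lutein against 4-OHT normexp gave 1 (1.44%), and for vitamin E against 4-OHT the values the authors deposited gave 2 (9.34%). These causes were not tested.

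Spike-in scaling shifted the median of all genes by -0.15 for 4-OHT against vehicle, 0.22 and 0.11 for vitamin E and lutein against 4-OHT, and 0.11 for vitamin E against lutein. On it the member median for vitamin E against lutein was 0.01, and relative to protein-coding genes that for vitamin E against 4-OHT was -0.01, so neither direction is settled. Among all genes past 1.5-fold the higher share was 52.9% for 4-OHT against vehicle (35.3% on spike-ins), 35.4% for vitamin E against 4-OHT (49.4% with quantile, 66.7% on spike-ins), 30.0% for lutein against 4-OHT (42.1% and 45.2%), 39.9% for vitamin E against vehicle (51.9% on spike-ins) and 19.8% for vitamin E against lutein (37.3% and 34.8%). Across the scalings 16 to 21 members lay above 0 for 4-OHT against vehicle and 24 to 28 for lutein against 4-OHT.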
